A study of Homo sapiens and Mus musculus with 24 samples.

Results

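The genes described here were past the threshold both in a human cell line and in a mouse model of DNMT3A loss in the intestinal epithelium. They are the 7 genes *DMXL2*, *TBC1D9*, *BLVRB*, *FAM221A*, *CALML4*, *CCNJ* and *HPN*, out of 58051 human and 29307 mouse gene identifiers in the counts. They were chosen by name, with the results of both knockout comparisons known, from 42 genes of the same symbol that were called in both models among 9988 symbols tested in both (0.421%). The ΔDNMT3A against WT and the Dnmt3a ΔIEC against Dnmt3a fl/fl values therefore describe how the genes were selected and carry no test here.

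DNMT3A is a de novo DNA methyltransferase, an enzyme that adds methyl groups to cytosines that stand before a guanine (CpG sites). Its long isoform DNMT3A1 and its short isoform DNMT3A2, which starts at an internal promoter and lacks the N-terminal part, share the catalytic domain. Methylated CpG-rich promoters are in general silent, but methylation within gene bodies and at distal elements also goes with expression, so that loss of the enzyme can move genes either way.

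The human libraries came from Caco-2, a human colorectal adenocarcinoma line that can form a brush border. The 4 lines were the parental cells (WT, 4 libraries), a clonal line in which DNMT3A was deleted by CRISPR/Cas9 (ΔDNMT3A, 4 libraries), and 2 clonally expanded lines in which TY1-tagged DNMT3A1 (3 libraries analysed here) or DNMT3A2 (4 libraries) was put back into ΔDNMT3A on a piggyBac vector with a CMV promoter and puromycin selection. Each genotype was thus 1 line, and a difference between lines cannot be told apart from a difference between clones. The mouse libraries came from EpCAM-positive colonic epithelial cells of adult mice at steady state, 4 Dnmt3a fl/fl and 4 Dnmt3a ΔIEC. The floxed line was on a C57BL/6J background, and the Vil1-Cre line, whose transgene only Dnmt3a ΔIEC carried, on C57BL/6JxSJL/J. All 8 libraries came from mice that carried floxed Dnmt3a alleles, and in Dnmt3a ΔIEC a villin promoter drove Cre in the intestinal epithelium and removed internal exons of Dnmt3a. Nothing in the sources says that the libraries of a Caco-2 line were separate cultures, so p-values measure the spread between these libraries only.

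Between 22104408 and 42161299 reads were counted on genes in the 15 Caco-2 libraries, and between 16943626 and 24921248 in the 8 mouse libraries. The 7 genes held 52 to 2900 counts per library in Caco-2 and 43 to 2459 in mouse, and all 7 passed the filter on low counts in each of the 7 comparisons. Levels are given as CPM, the counts of a gene scaled to the size of its library. *DNMT3A* stood at 62.0 to 67.2 CPM in WT, 19.3 to 22.3 in ΔDNMT3A, 36.7 to 39.1 in DNMT3A1 and 20.2 to 23.5 in DNMT3A2. The reintroduced DNMT3A2 was thus not seen as a higher count of the gene (log2 fold change 0.073 ± 0.057 SE against ΔDNMT3A, adjusted p = 0.272 by edgeR's quasi-likelihood test). This is a statement about RNA counts only, as the paper reports both reintroduced isoforms as protein by immunoblot. Mouse *Dnmt3a* stood at 84.7 to 102 CPM in Dnmt3a fl/fl and at 41.7 to 49.6 in Dnmt3a ΔIEC. Of 10 epithelial markers, 0 in the mouse (summed level 12903 to 18214 CPM) and 1 in Caco-2 were at or below 3 counts in every library of a group, while 9 colonocyte markers summed to no more than 39.1 CPM in any Caco-2 library against at least 11197 CPM in every mouse library.

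The 7 genes share no region. On GRCh38 *DMXL2* lies at chr15:51447711-51622833 on the minus strand, *CALML4* at chr15:68190705-68206110 (minus), *TBC1D9* at chr4:140620765-140756120 (minus), *BLVRB* at chr19:40447789-40465840 (minus), *HPN* at chr19:35040506-35066571 (plus), *FAM221A* at chr7:23680130-23703249 (plus) and *CCNJ* at chr10:96043394-96060870 (plus). Human *CALML4* shares 80.2% of its exonic bases with ENSG00000260007, an annotated gene on the same strand that was itself counted at 1.32 to 3.97 CPM, so the split of reads between these genes is uncertain. The antisense genes that cross the other members in Caco-2 do not share their strand, on which the human reads were counted.

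Because the enzyme acts on CpG sites, the CpG content of the promoters was read for orientation from RefSeq (GRCh38.p14), as the 250 bases before the start that RefSeq gives. This start can differ from that of the annotation used for counting, which gives the gene coordinates above. The stretches of *CCNJ*, *DMXL2*, *BLVRB* and *FAM221A* begin before and end inside the gene as counted. That of *HPN* lies inside the gene, and only that of *CALML4* lies wholly before it. The table matched 6 of the 7 genes, all but *TBC1D9*. The letters CG, which read the same on both strands, occurred at least once in 93.9% of the 35116 promoters of this length in the table, with a median of 11 per promoter and quartiles of 3 and 23. *CCNJ* had 35, a number reached by 5.80% of promoters, *DMXL2* had 29 (14.1%), *FAM221A* 28 (15.9%), *BLVRB* 21 (30.2%), *HPN* 10 (52.2%) and *CALML4* 5 (65.7%). The richest and the poorest are shown because both belong to genes with the same pair of directions, lower in ΔDNMT3A and higher in Dnmt3a ΔIEC. CpG sites are in capitals, and no methylation was measured in the files used here.
CCNJ (chr10:96043333-96043582, plus strand, 5′ to 3′): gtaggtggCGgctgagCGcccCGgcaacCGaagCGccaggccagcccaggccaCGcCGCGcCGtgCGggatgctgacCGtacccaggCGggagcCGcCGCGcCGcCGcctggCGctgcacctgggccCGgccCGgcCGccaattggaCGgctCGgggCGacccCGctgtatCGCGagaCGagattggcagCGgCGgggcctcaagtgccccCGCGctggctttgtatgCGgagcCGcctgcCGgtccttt
CALML4 (chr15:68206111-68206360, minus strand, 5′ to 3′): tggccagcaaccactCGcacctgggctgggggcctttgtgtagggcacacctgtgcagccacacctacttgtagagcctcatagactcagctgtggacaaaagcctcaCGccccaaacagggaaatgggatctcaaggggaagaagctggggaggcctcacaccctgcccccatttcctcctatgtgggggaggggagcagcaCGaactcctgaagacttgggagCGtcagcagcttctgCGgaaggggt

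First, the direction of each gene in the 2 models was compared. *DMXL2*, *BLVRB* and *FAM221A* were higher in ΔDNMT3A than in WT and higher in Dnmt3a ΔIEC than in Dnmt3a fl/fl, and *TBC1D9* was lower in both, so 4 of the 7 had the same direction. *CALML4*, *CCNJ* and *HPN* were lower in ΔDNMT3A and higher in Dnmt3a ΔIEC. Over all 42 genes called in both models, 25 had the same direction (0.250% of the pairs tested), 23 of them higher in both and 2 lower in both, while 14 were lower in ΔDNMT3A and higher in Dnmt3a ΔIEC and 3 the other way round. In ΔDNMT3A against WT 62.2% of the 16654 genes tested were called, against 0.691% of 14626 genes in the mouse comparison, so that a call in the cell line is common and a call in the mouse is rare.

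*DMXL2* encodes rabconnectin-3α, a large scaffold that binds the vacuolar proton pump (V-ATPase) and promotes its assembly. Its level was 23.1, 26.1, 24.9 and 24.7 CPM in the WT libraries and 43.5, 46.3, 40.2 and 42.9 CPM in ΔDNMT3A. All ΔDNMT3A libraries lay above all WT libraries, a 1.74-fold difference (log2 0.80 ± 0.048 SE). In the mouse it was 2.36, 2.26, 2.98 and 2.63 CPM in Dnmt3a fl/fl and 7.91, 8.30, 7.85 and 7.18 CPM in Dnmt3a ΔIEC. The groups again did not overlap, and the fold of 3.04 (log2 1.61 ± 0.15) was larger than that of all but 0.438% of the mouse genes tested.

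*FAM221A*, a gene whose product is little characterised, was at 5.26, 4.53, 5.26 and 5.07 CPM in WT and at 6.83, 8.29, 6.998 and 7.51 CPM in ΔDNMT3A (1.46-fold, log2 0.54 ± 0.085). The mouse levels were 4.48, 5.99, 5.74 and 5.18 CPM in Dnmt3a fl/fl and 7.99, 9.23, 10.7 and 11.6 CPM in Dnmt3a ΔIEC (1.85-fold, log2 0.89 ± 0.16). Neither pair of groups overlapped.

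*BLVRB* encodes biliverdin reductase B, which also reduces flavins. It moved least in Caco-2, from 60.9, 55.2, 63.5 and 61.8 CPM in WT to 69.3, 71.6, 72.9 and 69.0 CPM in ΔDNMT3A (1.16-fold, log2 0.21 ± 0.038). Of the human genes tested, 54.3% had a larger fold in this comparison. The mouse levels were 27.2, 21.6, 25.6 and 23.7 CPM in Dnmt3a fl/fl against 35.9, 32.7, 34.2 and 40.1 CPM in Dnmt3a ΔIEC (1.46-fold, log2 0.54 ± 0.10), with no overlap in either model.

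*TBC1D9* carries the TBC domain typical of GTPase-activating proteins for Rab GTPases, the switches of membrane traffic. It was the member that was lower in both models, and by nearly the same fold. The levels were 6.54, 7.07, 5.07 and 6.84 CPM in WT and 3.11, 2.96, 3.41 and 3.32 CPM in ΔDNMT3A, 2.02-fold lower (log2 −1.01 ± 0.10). In the mouse they were 42.8, 43.2, 31.3 and 32.0 CPM in Dnmt3a fl/fl and 22.1, 17.6, 17.1 and 16.7 CPM in Dnmt3a ΔIEC, also 2.02-fold lower (log2 −1.02 ± 0.14). Replicates 1 and 2 of Dnmt3a fl/fl stood above replicates 3 and 4, and all 4 stood above the Dnmt3a ΔIEC libraries.

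*CALML4* is a calmodulin-like light chain of myosin-7B in the intermicrovillar adhesion complex, which links the tips of brush border microvilli. It was at 5.32, 5.00, 5.46 and 5.15 CPM in WT and 4.42, 4.12, 3.89 and 4.09 CPM in ΔDNMT3A (1.27-fold lower, log2 −0.35 ± 0.085). In mouse colonic cells it was an abundant transcript, with 72.1, 74.8, 66.4 and 78.8 CPM in Dnmt3a fl/fl, beside 99.2, 97.4, 94.9 and 110 CPM in Dnmt3a ΔIEC (1.37-fold, log2 0.46 ± 0.086). ENSG00000260007, with which human *CALML4* shares exons, was also lower in ΔDNMT3A (2.18 CPM ± 0.51 SD, n = 4) than in WT (3.54 ± 0.30, n = 4).

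*CCNJ* encodes cyclin J, a divergent member of the cyclin family. The WT libraries held 34.6, 31.6, 32.7 and 31.4 CPM and the ΔDNMT3A libraries 24.3, 23.0, 22.8 and 22.4 CPM (1.42-fold lower, log2 −0.50 ± 0.047). In the mouse the gene stood at 4.71, 2.78, 5.08 and 5.22 CPM in Dnmt3a fl/fl and at 11.6, 10.6, 10.1 and 9.47 CPM in Dnmt3a ΔIEC, 2.33-fold higher (log2 1.22 ± 0.19). No library of one group reached the range of the other in either model.

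*HPN* encodes hepsin, a serine protease anchored in the plasma membrane that can activate pro-hepatocyte growth factor. In Caco-2 it went from 12.6, 12.3, 14.1 and 14.8 CPM in WT to 11.7, 10.5, 11.7 and 10.8 CPM in ΔDNMT3A, only 1.22-fold lower (log2 −0.28 ± 0.069), and the highest ΔDNMT3A library was 11.7 CPM beside a lowest WT library of 12.3 CPM. In the mouse it went from 3.56, 4.73, 5.30 and 3.72 CPM to 12.5, 10.95, 10.5 and 8.12 CPM, 2.43-fold higher (log2 1.28 ± 0.18). On the lower-numbered of the 2 sequencing lanes alone the Caco-2 difference was log2 −0.18.

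On GRCm38 the mouse genes are *Dmxl2* (chr9:54365158-54501760, minus), *Calml4* (chr9:62858104-62875918, plus), *Tbc1d9* (chr8:83165352-83272934, plus), *Blvrb* (chr7:27447978-27466144, plus), *Hpn* (chr7:31098725-31115290, minus), *Fam221a* (chr6:49367739-49390539, plus) and *Ccnj* (chr19:40831279-40848572, plus).

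The genes differed in how firmly the mouse data placed them past the threshold that chose them. *Dmxl2*, *Tbc1d9* and *Hpn* were past it when any 1 of the 8 mouse libraries was left out, *Ccnj* in 5 of the 8 fits, *Fam221a* in 2, and *Blvrb* and *Calml4* in 0, while no member changed its direction in any of them. *BLVRB* and *CALML4* were also nearest to the threshold, with mouse adjusted p-values (edgeR) of 0.0480 and 0.0427. Just outside it, among genes called in ΔDNMT3A against WT, were *GALT*, an enzyme of galactose metabolism (mouse log2 0.44, adjusted p = 0.0554), and *NDRG1* (mouse log2 −0.58, adjusted p = 0.0563).

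**Figure D1:**
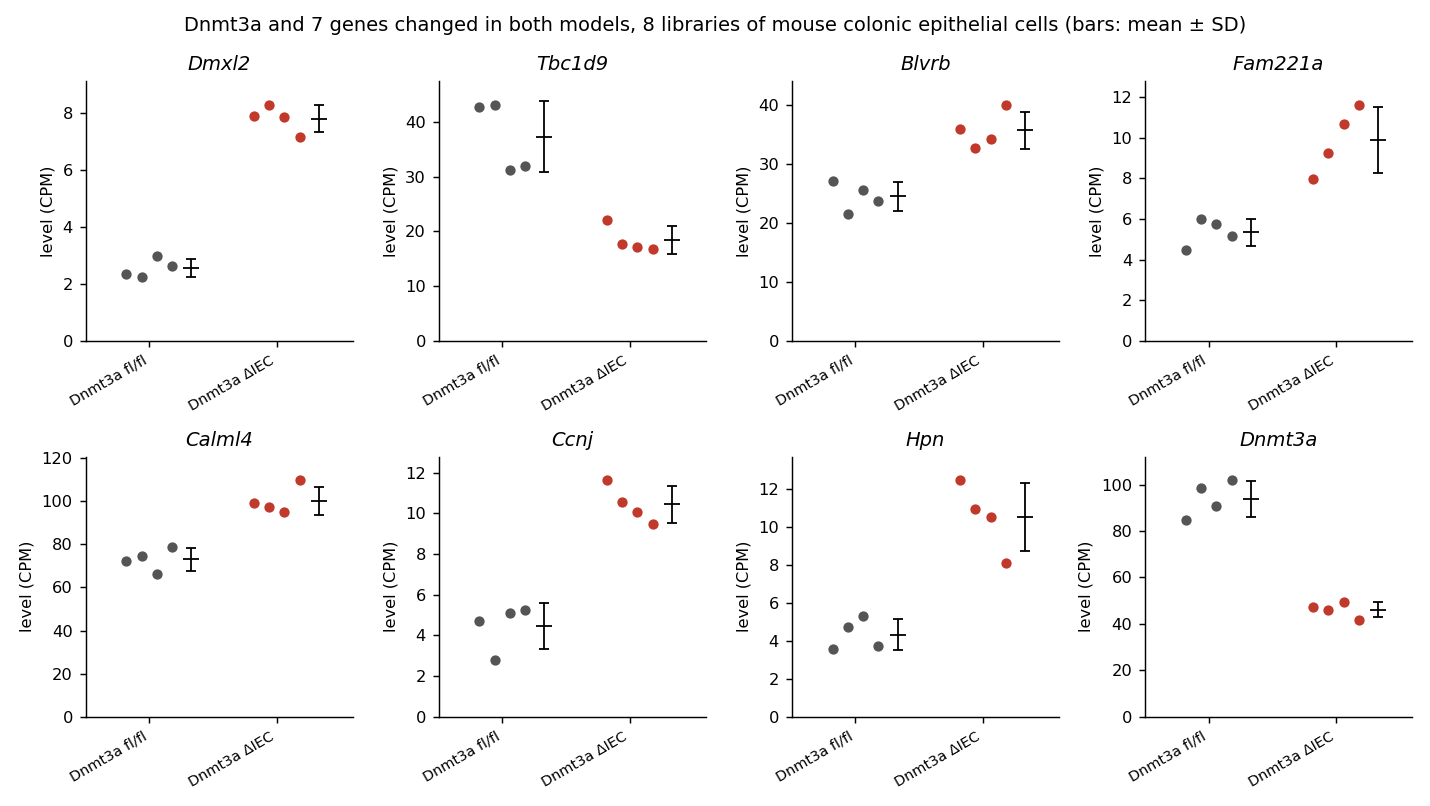
Level of each of the 7 genes and of *Dnmt3a* (CPM, y axis from 0) in the 4 Dnmt3a fl/fl (grey) and 4 Dnmt3a ΔIEC (red) libraries, each point 1 library, with mean ± SD. *Tbc1d9* and *Dnmt3a* are lower and the other 6 genes higher in Dnmt3a ΔIEC, in a comparison that helped choose the 7 genes.

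Markers of 1 epithelial cell type moved together with the mouse genes. Of 14 markers of tuft cells, the chemosensory cells of the gut epithelium, 13 were tested, and 10 were higher and 0 lower in Dnmt3a ΔIEC. Their median log2 fold change was 1.73, against −0.0036 over all mouse genes tested. Among them *Dclk1* rose by log2 1.84 ± 0.11 (adjusted p = 8.70e-05), *Trpm5* by 1.79 ± 0.13 (adjusted p = 0.000242) and the tuft cell regulator *Pou2f3* by 1.75 ± 0.17 (adjusted p = 0.000959), all by edgeR. The sum of the 14 markers was 95.3, 104, 70.7 and 100 CPM in Dnmt3a fl/fl and 262, 268, 255 and 220 CPM in Dnmt3a ΔIEC, and none of the 14 was at or below 3 counts in every library of a group. In bulk libraries more cells of a type and more RNA per cell cannot be told apart, and the part of these markers in the difference of the 6 genes that were higher in Dnmt3a ΔIEC was not tested.

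In Caco-2, in contrast, the same 14 markers summed to 3.36 to 7.41 CPM over the 15 libraries, 6 or 7 of them were at or below 3 counts in every library of a line, and *DCLK1* held at most 1 count. The highest of them was *GFI1B*, a transcription factor gene, with a mean of 4.46 CPM in WT against 1.53 CPM in ΔDNMT3A, while the isoform lines held 2.63 (DNMT3A1) and 0.42 CPM (DNMT3A2), levels partly in the range of *CALML4* and *TBC1D9*. Of 5 tuft markers tested in ΔDNMT3A against WT, *POU2F3* and *ALOX5AP* were higher and *GFI1B* was lower, and the part of these markers in the Caco-2 results was not tested. The 9 enteroendocrine markers spread from 198 to 618 CPM among the Dnmt3a fl/fl libraries and from 358 to 412 CPM in Dnmt3a ΔIEC, with 0 of 9 called. Immune markers were low in both mouse groups, yet their sums did not overlap (11 genes, 3.89 to 5.61 CPM against 6.19 to 7.73 CPM, 0 of 4 tested called). The difference of the sums lay mainly in *Ptprc*, with a mean of 1.85 CPM in Dnmt3a fl/fl and 4.08 CPM in Dnmt3a ΔIEC. The next highest immune marker, *Ms4a1*, was at 0.71 and 0.61 CPM. The 12 stromal markers summed to 13.1 to 22.1 CPM. Goblet, colonocyte, epithelial and stem cell or cycling markers gave 0 calls out of 7, 9, 10 and 6 tested.

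**Figure D2:**
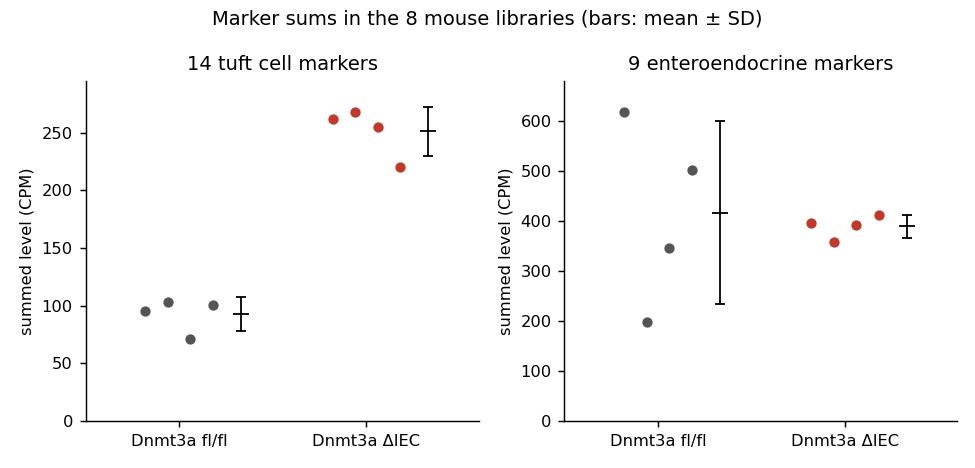
Summed level (CPM, y axis from 0) of 14 tuft cell markers (left) and 9 enteroendocrine markers (right) in each of the 8 mouse libraries, with mean ± SD. The tuft sums are 70.7 to 104 CPM in Dnmt3a fl/fl and 220 to 268 CPM in Dnmt3a ΔIEC, while the enteroendocrine sums overlap.

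Next, the answer of each gene to the reintroduced isoforms was examined. Both isoform lines were compared with ΔDNMT3A, whose libraries also entered the comparison that chose the genes and are thus not independent of the choice. The same holds for the WT libraries in every comparison with WT below. In DNMT3A1 against ΔDNMT3A 5 of the 7 genes passed the threshold (60.7% of all 16860 genes tested did), and in DNMT3A2 against ΔDNMT3A 6 of the 7 (67.9% of 16431). With 7 genes, these counts are not read as a property of the genes. *HPN* was the only one of the 7 that passed the threshold in the direction of WT in both isoform lines.

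**Figure D3:**
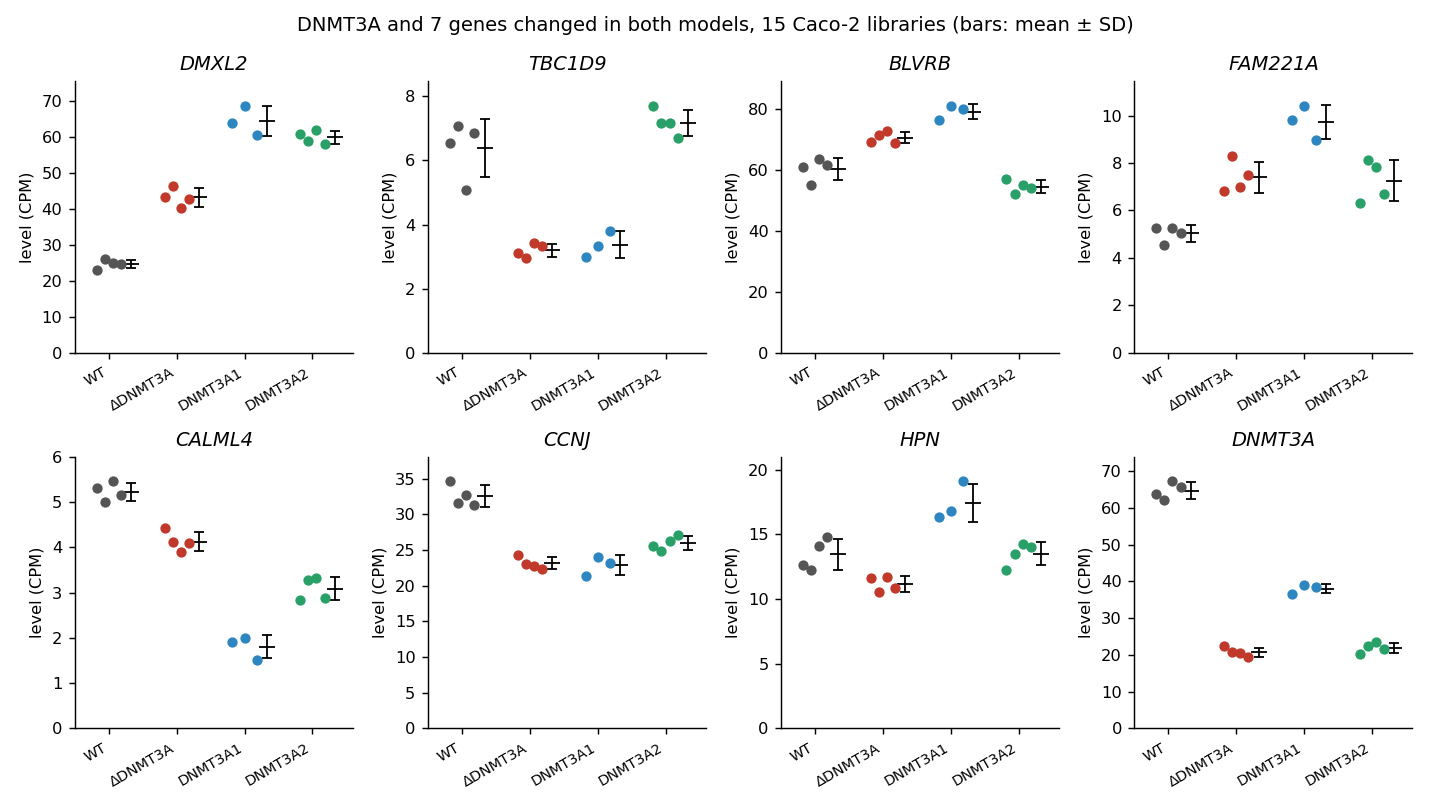
Level of each of the 7 genes and of *DNMT3A* (CPM, y axis from 0) in the 4 WT (grey), 4 ΔDNMT3A (red), 3 DNMT3A1 (blue) and 4 DNMT3A2 (green) libraries, with mean ± SD. *DMXL2* is highest in both isoform lines (58.2 to 68.8 CPM), *TBC1D9* stays at the ΔDNMT3A level in DNMT3A1 and at the WT level in DNMT3A2, and *CALML4* is lowest in DNMT3A1.

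*DMXL2* went further from WT in both isoform lines. It reached 64.0, 68.8 and 60.6 CPM in DNMT3A1 and 60.9, 58.9, 62.1 and 58.2 CPM in DNMT3A2, above every ΔDNMT3A library. Against ΔDNMT3A it rose by log2 0.57 ± 0.052 in DNMT3A1 (adjusted p = 8.65e-09, edgeR) and by 0.47 ± 0.040 in DNMT3A2 (adjusted p = 3.03e-10). Against WT the folds were 2.60 and 2.41, more than the 1.74 of ΔDNMT3A.

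*TBC1D9* was higher than in ΔDNMT3A in the DNMT3A2 line and not detectably so in the DNMT3A1 line. Each was 1 clonal line, so isoform and clone cannot be told apart. Its level was 2.99, 3.33 and 3.80 CPM in DNMT3A1, overlapping ΔDNMT3A (log2 0.088 ± 0.12, adjusted p = 0.560). In DNMT3A2 it was 7.71, 7.15, 7.15 and 6.71 CPM, which was 2.24-fold above ΔDNMT3A (log2 1.16 ± 0.089, adjusted p = 5.35e-11, edgeR) and 0.15 ± 0.091 on the log2 scale from WT (adjusted p = 0.146). The DNMT3A2 libraries overlapped those of WT.

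*BLVRB* moved in opposite directions in the isoform lines. DNMT3A1 stood at 76.4, 81.2 and 80.1 CPM, above ΔDNMT3A (log2 0.17 ± 0.037, adjusted p = 0.000759, edgeR), and DNMT3A2 at 57.0, 52.1, 55.1 and 54.2 CPM, below it (log2 −0.38 ± 0.033, adjusted p = 5.16e-10). DNMT3A2 was also lower than WT by log2 0.16 (fold change −0.16 ± 0.038, adjusted p = 0.000422), although the highest DNMT3A2 library overlapped the lowest of WT. On the lower-numbered lane alone this difference was log2 −0.10 (adjusted p = 0.125).

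*FAM221A* rose further in DNMT3A1, to 9.82, 10.4 and 8.96 CPM (log2 0.39 ± 0.084 against ΔDNMT3A, adjusted p = 0.000485, edgeR). In DNMT3A2 it lay at 6.32, 8.12, 7.83 and 6.71 CPM, within the range of ΔDNMT3A at its upper end and below it at its lower end (log2 −0.041 ± 0.088, adjusted p = 0.701). On the higher-numbered lane, which holds 1 DNMT3A1 library, the rise was log2 0.31 (adjusted p = 0.0562), a fit whose spread comes from the ΔDNMT3A libraries and assumes that the lone library varies like them.

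*CALML4* fell in both isoform lines, away from WT. It was at 1.91, 1.99 and 1.52 CPM in DNMT3A1 (52 to 58 counts per library), 2.31-fold below ΔDNMT3A (log2 −1.21 ± 0.13, adjusted p = 1.58e-07, edgeR). In DNMT3A2 it was at 2.85, 3.28, 3.33 and 2.88 CPM (log2 −0.44 ± 0.10, adjusted p = 0.000725), where on the higher-numbered lane alone the adjusted p was 0.0526. ENSG00000260007, which shares its exons, did not follow it in DNMT3A2, where this gene rose by log2 0.54 ± 0.15 against ΔDNMT3A (adjusted p = 0.00221).

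*CCNJ* stayed low in DNMT3A1, at 21.4, 24.1 and 23.2 CPM (log2 −0.019 ± 0.052 against ΔDNMT3A, adjusted p = 0.773, edgeR). In DNMT3A2 it rose slightly to 25.6, 24.9, 26.2 and 27.1 CPM (log2 0.16 ± 0.048, adjusted p = 0.00496), still below WT by log2 0.34 (fold change −0.34 ± 0.045, adjusted p = 1.07e-07). On the lower-numbered lane alone the rise in DNMT3A2 was log2 0.092 (adjusted p = 0.271).

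*HPN* rose in both lines. DNMT3A1 held 16.4, 16.9 and 19.1 CPM, which passed WT (log2 0.65 ± 0.067 against ΔDNMT3A, adjusted p = 6.26e-08, and 0.37 ± 0.072 against WT, adjusted p = 7.08e-05, edgeR). DNMT3A2 held 12.3, 13.5, 14.3 and 14.002 CPM (log2 0.27 ± 0.065 against ΔDNMT3A, adjusted p = 0.000835), overlapping WT (log2 −0.013 ± 0.066, adjusted p = 0.875). On the lower-numbered lane alone the rise in DNMT3A2 was log2 0.21 (adjusted p = 0.0621).

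**Figure D4:**
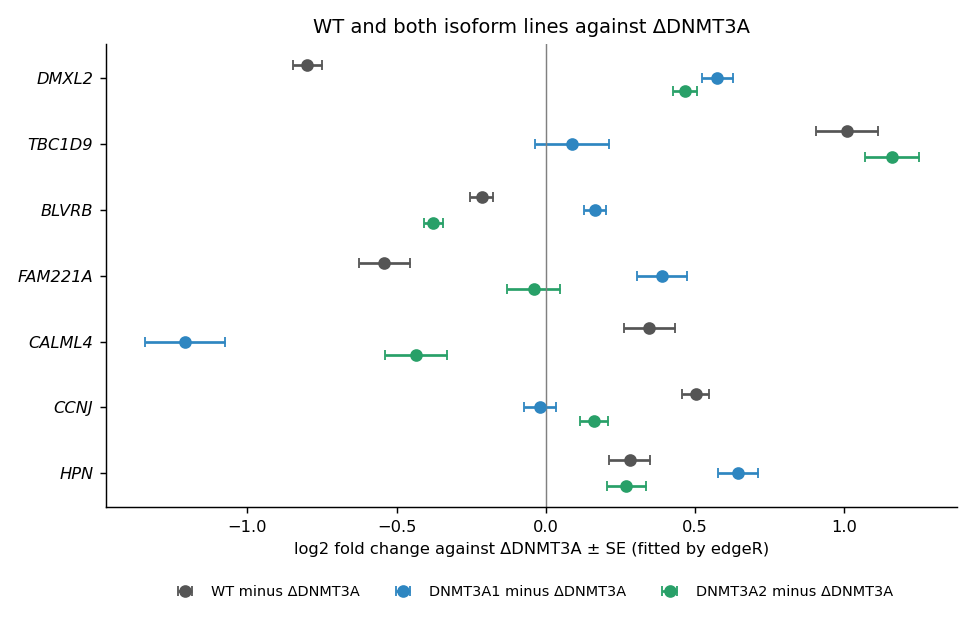
Log2 fold change against ΔDNMT3A (x axis, with standard error) of WT (grey), DNMT3A1 (blue) and DNMT3A2 (green) for each of the 7 genes (y axis). Points past the threshold on the side of the grey one are those of *HPN* for both isoforms and of *TBC1D9*, *BLVRB* and *CCNJ* for DNMT3A2, while both isoforms lie on the other side for *DMXL2* and *CALML4*.

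The comparison of the isoform lines with each other shares no library with the comparisons that chose the genes. All 7 genes differed between DNMT3A1 and DNMT3A2 (68.5% of 16637 genes tested did), 4 higher and 3 lower in DNMT3A1, and in 6 of the 7 the libraries did not overlap (66.6% of all genes). *TBC1D9* was 2.11-fold lower in DNMT3A1 (log2 −1.07 ± 0.10, adjusted p = 1.26e-09, edgeR) and *CALML4* 1.72-fold lower (log2 −0.78 ± 0.15, adjusted p = 6.30e-05). *BLVRB* was 1.45-fold higher (log2 0.54 ± 0.037, adjusted p = 1.24e-12), *FAM221A* 1.34-fold (log2 0.43 ± 0.089, adjusted p = 0.000139) and *HPN* 1.29-fold (log2 0.37 ± 0.069, adjusted p = 3.57e-05). *CCNJ* was lower by a smaller step (log2 −0.18 ± 0.053, adjusted p = 0.00330), which on the lower-numbered lane alone was log2 −0.15 (adjusted p = 0.0683).

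The difference of *DMXL2* between the isoform lines was the smallest (log2 0.10 ± 0.040, adjusted p = 0.0282, edgeR), and its libraries overlapped. It was lost without DNMT3A1 replicate 1 (adjusted p = 0.0691) or replicate 2 (log2 0.060, adjusted p = 0.195), without DNMT3A2 replicate 2 (adjusted p = 0.0642) or replicate 4 (adjusted p = 0.0855). On the higher-numbered lane, with 1 DNMT3A1 library and a spread taken from DNMT3A2 alone, the value was log2 0.019 (adjusted p = 0.792), the upper end of a range over the alternatives that began at 0.00294. *DNMT3A* itself was counted 1.74-fold higher in DNMT3A1 than in DNMT3A2.

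Against WT, all 7 genes passed the threshold in DNMT3A1 (65.3% of 17029 genes tested) and 5 of 7 in DNMT3A2 (68.7% of 16360), the other 2 being *TBC1D9* and *HPN*. The WT libraries also entered the comparison that chose the genes, so these counts are not independent of the choice and are not read as a property of the genes. From low to high, the order of the lines was WT, ΔDNMT3A, DNMT3A2, DNMT3A1 for *DMXL2*, where only the last 2 overlap. For *TBC1D9* it was ΔDNMT3A, DNMT3A1, WT, DNMT3A2, with overlap inside the first and inside the second pair and a gap between 3.80 and 5.07 CPM. *BLVRB* ran DNMT3A2, WT, ΔDNMT3A, DNMT3A1, and *FAM221A* WT, DNMT3A2, ΔDNMT3A, DNMT3A1. *CALML4* ran DNMT3A1, DNMT3A2, ΔDNMT3A, WT with all neighbours apart, and *CCNJ* DNMT3A1, ΔDNMT3A, DNMT3A2, WT with only the first pair overlapping. *HPN* ran ΔDNMT3A, WT, DNMT3A2, DNMT3A1, and there WT and DNMT3A2 overlapped.

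Levels of different genes were compared per kilobase of exon (CPM per kb). In WT Caco-2 *BLVRB* was the highest (36.2 ± 2.2 SD, n = 4), followed by *CCNJ* (7.85 ± 0.36), *HPN* (3.98 ± 0.36), *DMXL2* (1.79 ± 0.089), *TBC1D9* (1.14 ± 0.16), *CALML4* (1.04 ± 0.039) and *FAM221A* (0.675 ± 0.046), with *TBC1D9* and *CALML4* within their spread of each other. The value and place of human *CALML4* are uncertain, because it shares 80.2% of its exonic bases with ENSG00000260007. In Dnmt3a fl/fl cells *Calml4* led (84.8 ± 6.0, n = 4), then *Blvrb* (17.3 ± 1.7), *Tbc1d9* (6.34 ± 1.1), *Fam221a* (1.67 ± 0.21), *Hpn* (1.06 ± 0.20), *Ccnj* (1.02 ± 0.26) and *Dmxl2* (0.190 ± 0.024), with *Hpn* and *Ccnj* within their spread. *DMXL2* was thus among the middle genes in the cell line and the lowest of the 7 in mouse tissue cells, where its knockout difference was the largest.

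The partners of each gene were taken from lists of pathway genes, the members left out. *DMXL2* works with WDR7 (rabconnectin-3β) and ROGDI, and *DMXL1* is its paralogue. Of these 3 genes, *WDR7* rose in ΔDNMT3A (log2 0.20 ± 0.078, adjusted p = 0.0317, edgeR), *WDR7* and *ROGDI* rose in DNMT3A1 against ΔDNMT3A, and *DMXL1* (log2 0.25 ± 0.029) and *ROGDI* (log2 0.25 ± 0.067) rose in DNMT3A2. None of the 3 passed in the mouse, where *Dmxl1* was at log2 −0.30 ± 0.092 (adjusted p = 0.206). Of 19 V-ATPase subunit genes tested in Caco-2, 7 rose and 7 fell in ΔDNMT3A, where 62.2% of all genes passed. Against ΔDNMT3A, 6 rose and 8 fell in DNMT3A1 (60.7% of all genes passed) and 3 rose and 12 fell in DNMT3A2 (67.9% passed). The median there was log2 −0.17 against 0.0036 over all genes tested, and *ATP6V0E2* (log2 −1.39) and *ATP6AP1* (log2 −0.99) fell most. In the mouse 0 of 17 passed.

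The partners of *CALML4* were examined next. The other 5 genes of the intermicrovillar adhesion complex are the protocadherins *CDHR2* and *CDHR5*, the scaffolds *USH1C* and *ANKS4B*, and the motor *MYO7B*. In ΔDNMT3A *CDHR2* (log2 1.39 ± 0.15) and *ANKS4B* (log2 0.56 ± 0.055) rose while *CALML4* was lower. In DNMT3A2 against ΔDNMT3A, where 67.9% of all genes passed, 4 of the 5 fell and *ANKS4B* rose by log2 0.30. *CDHR5* fell by log2 2.53 (from 40.9 to 7.05 CPM), *CDHR2* by 2.09, *USH1C* by 1.52 (from 177 to 61.9 CPM) and *MYO7B* by 1.32. The median of the 5 was log2 −1.52. In DNMT3A1, where *CALML4* fell most, only *CDHR2* of the 5 fell (log2 −1.77 ± 0.19) and *CDHR5* rose by log2 0.18. These genes were abundant in the mouse (*Cdhr2* 2419 CPM, *Cdhr5* 1758 CPM and *Myo7b* 912 CPM in Dnmt3a fl/fl), and 0 of the 5 passed there.

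Around *BLVRB*, 9 genes of heme breakdown and iron handling were tested in Caco-2, and all 9 passed in ΔDNMT3A, 6 higher and 3 lower, in a comparison where 62.2% of all genes did. *BLVRA*, the other biliverdin reductase, rose by log2 1.09 ± 0.047 (17.2 to 36.9 CPM), the heme oxygenase *HMOX1* by 1.04 ± 0.035 (57.7 to 120 CPM) and the bilirubin-conjugating *UGT1A1* by 1.21 ± 0.092. In DNMT3A2 against ΔDNMT3A both reductases fell, *BLVRA* at log2 −0.69. The iron exporter *SLC40A1* was higher in DNMT3A1 (342 CPM) than in DNMT3A2 (153 CPM; log2 1.17 ± 0.034). In the mouse 0 of 8 passed.

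*HPN* was compared with 10 other membrane-anchored serine proteases. In DNMT3A1 against ΔDNMT3A, where 60.7% of all genes passed, 6 of 7 tested rose and 0 fell. Their median was log2 0.67 against 0.014 over all genes. *TMPRSS4* rose by log2 2.86 ± 0.054 (15.6 to 113 CPM) and *TMPRSS13* by 2.75 ± 0.053 (7.12 to 47.9 CPM). In DNMT3A2 2 of 6 rose, again *TMPRSS13* (log2 2.61) and *TMPRSS4* (log2 1.09), and 4 fell (67.9% of all genes passed). In ΔDNMT3A both were lower than in WT, *TMPRSS13* by log2 1.04 (fold change −1.04 ± 0.067) and *TMPRSS4* by log2 0.93 (−0.93 ± 0.060). Of 7 tested inhibitors, substrates and related receptors, 0 rose and 4 fell in ΔDNMT3A, where 62.2% of all genes passed. In DNMT3A1 against ΔDNMT3A 4 rose and 2 fell (60.7% of all genes passed). *MET*, the receptor of hepatocyte growth factor, fell by 0.51 on the log2 scale in ΔDNMT3A and rose by log2 0.59 in DNMT3A1. *SERPINA5* went the same way (log2 −0.58 and 0.57), while *PLAU* was lower in both comparisons (log2 −0.30 and −0.68). In the mouse 0 of 6 proteases and 0 of 6 inhibitors, substrates and receptors passed.

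For *CCNJ*, 23 other cyclins were tested. In ΔDNMT3A 11 rose and 8 fell (62.2% of all genes passed there). In DNMT3A1 against ΔDNMT3A 7 rose and 14 fell (60.7% of all genes passed), with a median of log2 −0.31 against 0.014 over all genes. In DNMT3A2 14 rose and 7 fell (67.9% of all genes passed), with a median of log2 0.085. The paralogue *CCNJL* went the other way from *CCNJ* in ΔDNMT3A (log2 1.03 ± 0.057) and fell in both isoform lines, by log2 0.86 in DNMT3A1 and by log2 0.97 in DNMT3A2. For *TBC1D9*, 24 other TBC-domain genes were tested, of which 8 rose and 11 fell in ΔDNMT3A (62.2% of all genes passed), with *TBC1D22A* at log2 −1.001 ± 0.052. In the mouse 0 of 22 cyclins and 0 of 24 TBC genes passed. *FAM221B*, the paralogue of *FAM221A*, held too few counts in Caco-2 and was at log2 0.16 ± 0.19 in the mouse.

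Genes whose level most resembled that of each member were found by Pearson's r of log2 CPM over the 15 Caco-2 libraries, among 13759 genes. The points share 4 lines, whose mean levels enter r. *TFCP2L1* (r = 0.992), *DDR2* (0.991) and *TSPAN17* (0.988) came closest to *DMXL2*, *STT3B* (0.978), *RABL3* (0.976) and *ZDHHC20* (0.975) to *TBC1D9*, and *ST14* (0.980), *SPTB* (0.979) and *HAAO* (0.974) to *BLVRB*. *FBP1* (0.970), *PLD1* (0.949) and *CARS1* (0.948) resembled *FAM221A*, *GALNT7* (0.987), *TENM3* (0.980) and *NACC2* (0.980) *CALML4*, and *SAMD10* (0.976), *MBNL1* (0.973) and *CARHSP1* (0.964) *CCNJ*. For *HPN* only 27 genes exceeded 0.9, led by *GABRA4* (0.942), *TAL1* (0.932) and its fellow protease *TMPRSS4* (0.927), against 393 genes for *BLVRB*.

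Over the 8 mouse libraries, which share 2 groups, the same was done among 13217 genes. *Plcb2* (r = 0.990), *Psmb5* (0.989) and *Nrgn* (0.988) were closest to *Dmxl2*, *Map1b* (0.977), *Kctd9* (0.968) and *Kcnb2* (0.965) to *Tbc1d9*, *Serp1* (0.981), *Tpmt* (0.979) and *Ngrn* (0.974) to *Blvrb*, and *Sec22b* (0.977), *Slc25a45* (0.966) and *Ptges* (0.960) to *Fam221a*. *Msl3* (0.978), *Tbrg1* (0.975) and *Crot* (0.973) followed *Calml4*, *Myl7* (0.989), *Exosc4* (0.985) and *1110004E09Rik* (0.981) *Ccnj*, and *Strip2* (0.980), *Pnpla3* (0.976) and *B9d2* (0.969) *Hpn*. No gene was among the first 3 of a member in both species.

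Finally, the members were set beside their neighbours, the 50 tested genes nearest to each along the chromosome. In the mouse the neighbours' median lay between log2 −0.040 and 0.064, close to 0 for all 7 genes. In ΔDNMT3A against WT the 50 neighbours of *CCNJ* had a median of log2 −0.28, in the direction of the gene itself (−0.50), and those of *FAM221A* 0.15. The neighbours of *FAM221A* were also higher against WT in DNMT3A1 (median log2 0.27 beside 0.94 for the gene) and in DNMT3A2 (0.21 beside 0.50). Those of *CCNJ* were also lower against WT in DNMT3A1 (median log2 −0.31 beside −0.51 for the gene) and in DNMT3A2 (−0.24 beside −0.34). In DNMT3A2 against ΔDNMT3A the neighbours of *DMXL2* had a median of log2 0.37 beside 0.47 for the gene, and those of *CALML4*, also on chromosome 15, 0.26 beside −0.44. In DNMT3A1 against DNMT3A2 these were log2 −0.43 around *DMXL2* (0.10 itself) and −0.36 around *CALML4* (−0.78 itself). Around *TBC1D9* the median was log2 0.16 in DNMT3A2 against ΔDNMT3A, beside 1.16 for the gene. The part of such regional shifts in the values of *DMXL2*, *TBC1D9*, *CALML4*, *CCNJ* and *FAM221A* was not tested. Over the 6 Caco-2 comparisons the largest median around *BLVRB* or *HPN* was log2 0.091, around *HPN* in DNMT3A1 against ΔDNMT3A.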

How the data were processed

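RNA was measured by paired-end RNA-seq of total RNA in 15 Caco-2 libraries (reads of 75 bp) and 8 mouse colonic epithelial libraries (reads of 50 bp). Per the labels and the methods, the authors trimmed reads with Trim Galore 0.4.4, used STAR 2.5.2b for alignment (GRCh38 for human, GRCm38 for mouse) and ran featureCounts on the alignments. What was deposited is 1 table of unnormalised counts for each library. The file headers give featureCounts 1.5.2, counted by reverse strand, for human and 1.6.4, counted without strand, for mouse, so that mouse reads of antisense genes are not separated.

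Counts were used as deposited. Genes were filtered with filterByExpr, scaled by TMM and tested with edgeR 4.0.16 (limma 3.58.1, R 4.3.3), 2 groups at a time, by the quasi-likelihood test, with p-values adjusted after Benjamini and Hochberg across the whole table and called below 0.05. Levels are CPM on TMM-scaled library sizes. The scripts were tested on simulated data. Groups came from the labels, and replicate 3 of DNMT3A1 was not analysed here. Replicate libraries differed beyond sampling noise (chi-square per degree of freedom at least 1.83), so none was counted as a duplicate. Precision given by counts covers counting error only. Alternatives were DESeq2 1.42.0, other scalings, no filter on low counts, 1 fit of all 15 Caco-2 libraries, a replicate block, each sequencing lane alone and leaving out each library. The members and lists were chosen with earlier results of these data known. The genes named are the 7 members and DNMT3A, at most 3 called genes with the largest change per list and comparison (lists of up to 7 genes in full), markers, and the 3 genes most correlated with each member by log2 CPM (prior count 2, mean of at least 1 CPM). GALT and NDRG1 are named as the nearest genes outside the threshold. The result of 1 list of related genes is not reported here.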

Additional observations from a re-analysis of the deposited data

Results flagged for a closer look

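In 1 of 40 groups of 4 libraries, 1 library stood apart from the others, where chance flags about 1 in 20 groups. This was *Tbc1d9* in Dnmt3a ΔIEC, with 22.1 CPM in replicate 1 beside 16.7 to 17.6 CPM in the others.

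All 7 genes differed between the lines carrying DNMT3A1 and DNMT3A2, as tested directly, where 68.5% of 16637 genes tested did. The calls of *DMXL2* and *CCNJ* were lost under some of the alternatives. The log2 difference, DNMT3A1 minus DNMT3A2, was 0.10 for *DMXL2*, −1.07 for *TBC1D9*, 0.54 for *BLVRB*, 0.43 for *FAM221A*, −0.78 for *CALML4*, −0.18 for *CCNJ* and 0.37 for *HPN*.

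The human and mouse differences had opposite directions for 3 genes. *CALML4* was at log2 −0.35 in ΔDNMT3A and 0.46 in Dnmt3a ΔIEC, *CCNJ* at −0.50 and 1.22, and *HPN* at −0.28 and 1.28. The difference between the models was not tested.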

How the results depend on the processing

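Of 735 values of the 7 genes under the alternatives, 723 kept their direction and 677 also their side of the threshold. In the mouse all 84 kept their direction and 54 their side. The mouse count of 101 called genes became 407 with DESeq2 and 45 to 126 when 1 library was left out (57 without Dnmt3a ΔIEC replicate 2, 45 without replicate 3, and 57, 55 and 61 without Dnmt3a fl/fl replicates 1, 3 and 4). The 42 genes called in both models became 174 with DESeq2, all 7 members among them, and 5 where both models also had to differ by at least 1 on the log2 scale, of which *TBC1D9* was the only member. The cause of these and the following changes was not tested.

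On the higher-numbered lane alone, where DNMT3A1 has 1 library assumed to vary like the other group, log2 fold changes were 0.31 for *FAM221A* and 0.041 for *CCNJ* in DNMT3A1 against ΔDNMT3A, −0.37 for *CALML4* in DNMT3A2 against ΔDNMT3A and 0.019 for *DMXL2* in DNMT3A1 against DNMT3A2. On the lower-numbered lane they were 0.092 for *CCNJ* and 0.21 for *HPN* in DNMT3A2 against ΔDNMT3A, 0.031 for *HPN* and −0.10 for *BLVRB* in DNMT3A2 against WT, −0.28 for *CALML4* (edgeR, adjusted p = 0.0560) and −0.18 for *HPN* (adjusted p = 0.109) in ΔDNMT3A against WT, and −0.15 for *CCNJ* in DNMT3A1 against DNMT3A2. *DMXL2* in DNMT3A1 against DNMT3A2 was 0.10 with DESeq2 (adjusted p = 0.0561), 0.10 in the fit of 15 libraries (edgeR, adjusted p = 0.0557) and 0.093 with no filter (adjusted p = 0.0763). With total counts *CCNJ* was 0.0026 in DNMT3A1 against ΔDNMT3A, and in the fit of 15 libraries *HPN* was 0.0035 in DNMT3A2 against WT.

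With 1 library left out, values ran from −0.022 to 0.17 for *TBC1D9* and from −0.054 to 0.028 for *CCNJ* in DNMT3A1 against ΔDNMT3A, from −0.092 to 0.018 for *FAM221A* in DNMT3A2 against ΔDNMT3A, from −0.051 to 0.037 for *HPN* in DNMT3A2 against WT, and from 0.060 to 0.14 for *DMXL2* in DNMT3A1 against DNMT3A2. Values that changed sign were none of them past the threshold to begin with.

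Same-numbered Caco-2 libraries did not deviate together (correlations −0.047 to 0.068), so they were not treated as pairs in the main fits. These values cannot show whether such libraries shared a culture or a handling step. With a replicate block the number of called genes was 10019 and 11113 in DNMT3A1 and DNMT3A2 against ΔDNMT3A and 11138 in DNMT3A1 against DNMT3A2, and no call of the 7 genes changed.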
